A study of Mus musculus with 3 samples.

Results

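Genes for 10 matricellular proteins were followed in single cells of 3 mouse stem cell cultures: Sparc, Sparcl1, Postn, Tnc, Spp1, Thbs1, Thbs2, Thbs4, Ccn4 and Ccn5. They were chosen by name, and they are 10 of the 27886 genes listed in at least 1 of the 3 count tables. The table of the cardiac bodies listed all 10, that of the cardiac precursor cell cultures listed 9 (Thbs4 was not listed) and that of the stem cells listed 3 (Sparc, Sparcl1 and Spp1). Each table kept only genes that reached a count of 1 in some cell, so no level is given for a gene that a table did not list.

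Matricellular proteins are secreted into the extracellular matrix without forming its scaffold. They bind collagens and growth factors as well as receptors such as integrins, CD44, CD36 and CD47, and so tune adhesion, matrix assembly and signalling. In the heart they are known from developing valves and from scars, where fibroblasts, smooth muscle cells and macrophages are sources.

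All cells came from male F1 mouse embryonic stem cells with a C57BL/6J mother and a CAST/EiJ father, kept feeder-free in 2i medium with LIF and derived as single-cell clones from several blastocysts. The first group was these stem cells (mESC, 215 cells in 3 sequencing pools). The second was the cardiac precursor cell culture (CPCC, 175 cells in 2 pools), grown out of dissociated embryoid bodies in EGF and Fgf2 medium on gelatin and taken at the fourth passage. The third was hand-picked beating cardiac bodies (CB, 232 cells in 3 pools), which stayed whole and were not derived from the CPCC. Both started from hanging drop aggregates that were then moved into medium with ascorbic acid. The labels give 1 sample per group, that of mESC titled as a triplicate, and the pools are not tied to clones or cultures in the sources used here. Whether the pools are replicates cannot be told, so they were not used as such. Differences between cultures have no replicate check and no p-value is given. Values per pool are given for the members.

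The cells of all 3 cultures were read deeply, with medians of 1528320, 1437414 and 1397870 counts per cell in mESC, CPCC and CB, and 18 cells held under 10000 counts. No column name and no cell was shared between tables. The label of mESC matched its markers: the 5 pluripotency genes of a fixed list summed to a median of 1639 CPM per cell (counts per 1000000 counts of the cell). Markers of cardiomyocytes were scarce in both other cultures. The 6 genes of that list summed to 1000 CPM or more in 8 of 223 CB cells and in 5 of 174 CPCC cells, counted among cells with at least 10000 counts. Fibroblast markers reached that sum in 111 CB cells, smooth muscle markers in 63 CPCC cells and macrophage markers in 18 CPCC cells, all of pool 2. Epithelial markers reached it in 68 CB and 42 CPCC cells. The pools of a culture stood apart: CB pool 2 held all 20 CB cells with endothelial markers at that sum and 8 of the 111 with fibroblast markers.

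Cells were sorted into classes by genes that are no members: Col1a2 (a collagen I chain), Acta2 (smooth muscle actin) and C1qb (a complement chain of macrophages), each called high at 100 CPM or more. A C1qb-high cell was put in that class whatever its Col1a2 and Acta2. CPCC held 19 C1qb-high cells, 32 cells high in both Col1a2 and Acta2, 25 high in Acta2 alone and 98 low in all 3. CB held 5, 51, 22 and 87 such cells, and a further 58 high in Col1a2 alone, a class with no cell in CPCC. Within 2-fold of a limit lay 11 CPCC cells for Acta2, 9 for Col1a2 (beside 32 that passed it) and 3 for C1qb, and 14, 15 and 1 CB cells. In the 19 C1qb-high CPCC cells the 7 macrophage markers summed to a median of 14613 CPM, whereas fibroblast markers summed to 0.635 CPM. The 7 include C1qb itself, at a median of 4158 CPM, so part of the sum is set by the sorting. Medians of the rest ran from 523 (Csf1r) to 3561 CPM (C1qc), against 0 to 0.787 CPM in the other CPCC cells. The 5 C1qb-high CB cells carried fibroblast markers as well (7491 CPM beside 7429 CPM of macrophage markers), so they were not a clean macrophage class. Here too the macrophage sum includes C1qb, at a median of 1036 CPM. In the cells low in all 3 class genes, epithelial markers summed to a median of 1219 CPM in CB and 599 CPM in CPCC. Pluripotency markers summed to a median of 20.7 CPM in these CB cells and 609 CPM in these CPCC cells. The mESC cells had a median of 145 CPM of epithelial markers.

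The 250 bases before the start of 4 members are shown because the results below turn on these genes: Sparc, Postn and Thbs2 had the highest rank correlations with Col1a2 in CB, and Spp1 was held mainly by C1qb-high cells in CPCC. They are RefSeq sequences of GRCm38.p6, given 5′ to 3′ along the gene, at chr11:55420081-55420330 (minus strand), chr3:54360857-54361106 (plus), chr17:14694263-14694512 (minus) and chr5:104434861-104435110 (plus). Capitals mark the TATA box letters TATAAA on either strand.
Sparc: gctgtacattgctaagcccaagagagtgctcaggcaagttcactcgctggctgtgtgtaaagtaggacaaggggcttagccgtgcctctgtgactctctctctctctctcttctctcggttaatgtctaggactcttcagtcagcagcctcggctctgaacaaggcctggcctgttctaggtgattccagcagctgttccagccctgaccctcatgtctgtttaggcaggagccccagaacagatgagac
Postn: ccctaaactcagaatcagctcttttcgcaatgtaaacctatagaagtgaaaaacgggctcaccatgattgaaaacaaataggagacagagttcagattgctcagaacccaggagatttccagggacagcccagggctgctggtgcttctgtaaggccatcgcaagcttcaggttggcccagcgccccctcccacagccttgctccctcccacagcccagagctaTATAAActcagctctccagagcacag
Thbs2: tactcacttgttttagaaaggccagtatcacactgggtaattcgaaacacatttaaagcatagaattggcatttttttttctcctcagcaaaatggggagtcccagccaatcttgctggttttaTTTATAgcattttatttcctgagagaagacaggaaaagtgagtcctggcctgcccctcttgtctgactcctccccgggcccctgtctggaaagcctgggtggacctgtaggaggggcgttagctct
Spp1: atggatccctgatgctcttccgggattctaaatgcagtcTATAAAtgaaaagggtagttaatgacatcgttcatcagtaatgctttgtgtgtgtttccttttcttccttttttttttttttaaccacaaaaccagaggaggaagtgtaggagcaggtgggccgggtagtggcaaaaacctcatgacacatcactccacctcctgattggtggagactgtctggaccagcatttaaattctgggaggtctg
TATAAA stood 26 to 21 bases before the start of Postn, 126 to 121 before that of Thbs2 on the opposite strand and 211 to 206 before that of Spp1, and was not in the Sparc window, which lies 3103 bases inside the outermost start of the gene annotation. Of 32817 promoter windows of this length, 12.4% held it. The AP-1 type letters TGANTCA (6.75% of windows), the E-box CACGTG (6.02%) and the TEAD type letters GGAATG (12.6%) were in none of the 4 windows on either strand. Promoters of 6 members were in the table. Sparcl1, Thbs1, Ccn4 and Ccn5 had no entry.

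Sparc, on chr11:55394500-55423183, encodes a collagen-binding glycoprotein that helps collagen fibrils form. Over summed counts its level was 638 (mESC), 1934 (CPCC) and 3288 CPM (CB), and 97.7%, 97.7% and 96.6% of cells held at least 1 count. The mESC pools lay between 598 and 696 CPM, CPCC pools at 1157 and 2662 CPM and CB pools at 3403, 738 and 5578 CPM. CB pool 2 was thus below both CPCC pools, and the CB range enclosed the CPCC range. Per cell, Sparc was even in mESC, with quartiles of 474 and 777 CPM, and spread widely in CPCC (81.4 and 2185 CPM) and CB (290 and 4724 CPM).

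Sparcl1 (chr5:104079111-104113733), the anti-adhesive relative of Sparc, was scarcely detected outside CB. It had 109 counts in all mESC cells and 28 in all CPCC cells, which is 0.310 CPM and 0.101 CPM. In CB it had 161 CPM, with pools at 153, 79.5 and 240 CPM, all far above any mESC or CPCC pool. A count was found in 40.9% of CB cells (95% exact Clopper-Pearson interval 34.6 to 47.6), against 2.79% of mESC and 2.86% of CPCC cells. A single CB cell held 23.5% of the Sparcl1 counts, and the level without it was 124 CPM.

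Postn (chr3:54361109-54391037) encodes periostin, which takes part in collagen cross-linking and marks activated fibroblasts. It was at 100 CPM in CPCC and 478 CPM in CB, and 20% and 48.3% of cells held it. The CPCC pools differed strongly, at 2.67 and 192 CPM, and the CB pools lay at 643, 36.2 and 813 CPM. CB pool 2 lay between the CPCC pools. Tnc (chr4:63959785-64047015), the gene of tenascin C, a large matrix protein of developing and healing tissue, was at 88.5 CPM in CPCC (pools 30.7 and 143) and 60.1 CPM in CB (69.4, 29.3 and 84.2), so the cultures overlapped. Tnc shares 176 exon bases with 8030451A03Rik, and without a stated strand their reads cannot be told apart there.

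Spp1 (chr5:104435118-104441050) encodes osteopontin, a secreted ligand of integrins and CD44 that macrophages and bone cells make in quantity. Over summed counts its level was 1341 (mESC), 6181 (CPCC) and 278 CPM (CB). In mESC it was nearly uniform: 98.1% of cells held it, the pools lay between 1236 and 1421 CPM and the quartiles per cell were 830 and 1620 CPM. In CPCC the pools were at 632 CPM (pool 1) and 11377 CPM (pool 2), one below and the other above every mESC pool. In CB 20.3% of cells held it, and the pools were at 177, 57.6 and 524 CPM. A single CB cell of pool 3 carried 46.7% of the counts, and without it the CB level was 149 CPM. Spp1 shares 309 exon bases with Gm42793.

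Thrombospondins are multimeric glycoproteins. Thbs1 (chr2:118111876-118127133), an activator of latent TGF-beta and a ligand of CD36 and CD47, was at 497 CPM in CPCC (pools 196 and 780) and 260 CPM in CB (419, 17.4 and 414). It was held by 52.6% and 51.7% of cells, and it shares 208 exon bases with Gm29233. Thbs2 (chr17:14665500-14694235), which takes part in collagen fibril assembly, was at 9.53 CPM in CPCC (4.08 and 14.6) and 146 CPM in CB. Its CB pools differed widely, with 128 CPM in pool 1, 289 CPM in pool 3 and no count in the 78 cells of pool 2, which allows a share of up to 3.85% of cells. Thbs4 (chr13:92751590-92794818) was low in CB, at 8.91 CPM (pools 0.994, 7.25 and 13.9) in 4.31% of cells, and 1 cell held 38.8% of it.

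Of the CCN family, Ccn4 (chr15:66891320-66923201), a target of Wnt signalling, was at 88.03 CPM in CPCC (pools 31.4 and 141) and 77.1 CPM in CB (91.0, 8.88 and 134), in 29.1% and 29.3% of cells. The pools of the 2 cultures overlapped, and the shares of cells were alike. Ccn5 (chr2:163820861-163833146), a member that lacks the last domain of the family, was at 0.536 CPM in CPCC and 28.7 CPM in CB. In CPCC it had 1.04 CPM in pool 2 and no count in the 79 cells of pool 1, which allows a share of up to 3.797% of cells. Nearly all of the CB counts were in pool 3 (66.7 CPM, against 1.25 and 0.235 in the other pools), and 1 cell held 39.2%.

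**Figure D1:**
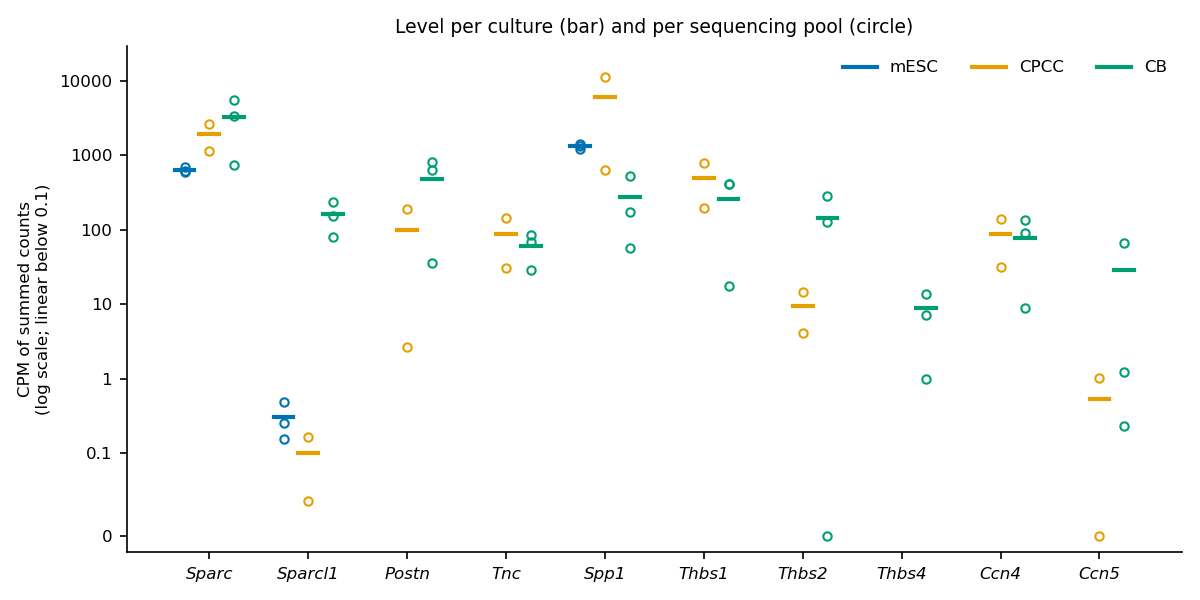
Level of the 10 members in CPM of summed counts (log scale, linear below 0.1) in mESC, CPCC and CB. Bars are cultures, circles are sequencing pools, and no bar means not listed. The pools of Spp1 in CPCC lie at 632 and 11377 CPM, and the pools of CB spread widely for most members.

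Levels of different genes were compared only per kilobase of the longest principal transcript. In mESC the order was Spp1 (890 CPM per kb), Sparc (277) and Sparcl1 (0.112), and it held in all 3 pools. In CPCC Spp1 (4102) and Sparc (841) led, but they changed places between the pools. Thbs1 (85.0), Postn (31.5), Ccn4 (17.3), Tnc (12.5) and Thbs2 (1.62) followed, and Postn was above Ccn4 in 1 pool only. In CB Sparc (1429) led in all 3 pools. Spp1 (184), Postn (150), Sparcl1 (58.4) and Thbs1 (44.5) came next, the first 3 of them each above the following gene in 2 of 3 pools. The place of Spp1 above Postn rests on 1 cell of pool 3, which held 46.7% of the CB counts of Spp1. Thbs2 (24.8), Ccn5 (16.7), Ccn4 (15.1), Tnc (8.46) and Thbs4 (2.79) came last, and Ccn5 was above Ccn4 in only 1 pool.

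Shares of cells were also taken at equal depth. A member was found in at least 25% of cells in 14 of its 22 listings per culture, and again in 14 over the 193 mESC, 157 CPCC and 210 CB cells that could be thinned to 430000 counts. Of all listed genes, 12242 of 23371 in CPCC and 9997 of 24229 in CB were held by at least 25% of these cells before thinning. No such share was taken for mESC. Shallower cells were left out, so the cells differ as well as the depth, and the equal number does not show that single shares stayed alike. Sparc was then held by 100% of mESC, 94.3% of CPCC and 95.2% of CB cells, Spp1 by 100%, 82.8% and 13.8%. Many CB cells with Spp1 held only a few counts, since 8.19% of cells had at least 10.

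The first comparison asked which members differed between the stem cells and the precursor culture. Both members that could be compared (at least 1 CPM in the higher sample) were at least 2-fold higher in CPCC, where 17.5% of 15471 genes were higher by that measure and 8.36% lower. The log2 ratio of (CPM + 1) was 1.60 for Sparc and 2.204 for Spp1, against a median of -0.01 over all genes. Sparc was higher in CPCC in all 6 pairs of pools, with log2 ratios from 0.73 to 2.15. Spp1 was higher in 3 of 6, and with CPCC pool 2 left out it was lower in CPCC, at -1.08, and Sparc was within 2-fold at 0.86. Without the C1qb-high cells, which were all in pool 2, Spp1 was likewise lower in CPCC (log2 ratio -1.28).

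Against mESC, 2 of 3 members were at least 2-fold higher in CB and 1 was lower, where 30.8% of 16018 genes were higher and 14% lower. Sparcl1 had a log2 ratio of 6.95 and Sparc of 2.36, and both were higher in all 9 pairs of pools. For Sparc the lowest of these was 0.08, with CB pool 2. Spp1 was lower in all 9 pairs (log2 ratio -2.27, pairs from -4.60 to -1.24).

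Between CB and CPCC, 9 members were compared. Sparcl1 (log2 ratio 7.20), Ccn5 (4.27), Thbs2 (3.81) and Postn (2.24) were at least 2-fold higher in CB, and Spp1 was lower (-4.47). In the background 21.3% of 16764 genes were higher and 9.44% lower by that measure. With TMM factors in place of library totals these shares were 17.7% and 12.6%, and the median over all genes moved from 0.22 to 0.03. Sparc (0.77), Ccn4 (-0.19), Tnc (-0.55) and Thbs1 (-0.93) lay within 2-fold, but none of the 4 did so with every pool left out in turn. Sparc ran from -0.28 (without CB pool 3) to 1.35 (without CB pool 2) and 1.51 (without CPCC pool 2). Ccn4 ran from -1.30 (without CB pool 3) to 1.27 (without CPCC pool 2). Without CPCC pool 1, CB pool 3 and CPCC pool 2 in turn, Tnc had -1.23, -1.05 and 0.95. Thbs1 had -1.58, -1.76 and 0.41, and it reached -1.13 with TMM factors. The direction held in all 6 pairs of pools for Sparcl1 (higher) and Spp1 (lower). It held in 5 of 6 for Postn and Ccn5 and in 4 of 6 for Thbs2, the exceptions all involving CB pool 2. The pair ratios ran widely, from -2.38 to 7.79 for Postn, -0.72 to 6.08 for Ccn5 and -3.97 to 5.83 for Thbs2. Without the C1qb-high cells the Spp1 ratio shrank to -0.99. The higher level of Ccn5 in CB rests on CB pool 3, at 66.7 CPM against 1.25 and 0.235 CPM in CB pools 1 and 2. With CB pool 3 left out, Ccn5 was below 1 CPM in both cultures and was no longer compared.

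The next question was which cells held each member. In CB, 113 cells were Col1a2-high and 110 were not. All 10 members could be compared, and 9 had at least a 2-fold higher mean in the Col1a2-high cells, where 14.8% of 17889 genes were higher and 16.6% lower. The median log2 ratio of (mean CPM + 1) was 3.499 over the members and -0.11 over all genes. Cells of 1 sample are not replicates, so these counts describe 1 culture.

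Postn had the highest log2 ratio of (mean CPM + 1) in CB, although Ccn5, near 0 in the other cells, had the higher plain ratio of means (288-fold against 147-fold). The Postn mean was 923 CPM in Col1a2-high cells and 6.28 CPM in the others (log2 ratio 6.99), and 78.8% and 20.9% of cells held it. Within pools the ratio was 5.93, 3.49 and 9.72. Thbs2 had means of 261 and 14.6 CPM (4.07), Ccn4 of 127 and 6.62 CPM (4.07) and Tnc of 97.9 and 21.1 CPM (2.16). These members were higher in Col1a2-high cells in every pool in which they had counts. Sparc, at 5528 and 746 CPM (2.89), was higher in pools 1 and 3 (2.12 and 3.88) but not in pool 2 (-0.34), whose 13 Col1a2-high cells stood among 63 others. Sparcl1 (1.84) and Ccn5 (5.65) followed the same course, with -0.34 and -0.45 in pool 2. Without pool 3 the Ccn5 ratio was 0.69. Thbs1 had means of 427 and 55.3 CPM (2.93), with 1.73, 0.19 and 2.40 in the pools. Thbs4 stayed within 2-fold (-0.13), and its pools had opposite signs (0.83, 2.54 and -1.21).

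Spp1 also had a higher mean in Col1a2-high CB cells (514 against 6.68 CPM, log2 ratio 6.07), but few cells carried it. Its median was 0 CPM in both classes, and 15 CB cells had 100 CPM or more, of which 13 were Col1a2-high, and 2 of the 15 were also C1qb-high. The leading cell had 24477 CPM of Spp1 with 1554 CPM of Col1a2, 0.559 CPM of Acta2 and no C1qb. It was also the third in Sparcl1, at 1583 CPM.

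In CPCC, the 64 Acta2-high cells were set against 110 others. Of 7 members compared, 6 had an at least 2-fold higher mean and none a lower one, where 18% of 16288 genes were higher and 15.8% lower. The median log2 ratio was 4.52 over the members and -0.08 over all genes. Tnc had a mean of 242 CPM in Acta2-high cells and 0.0640 CPM in the others (log2 ratio 7.84), the largest of the 7 ratios. Postn (6.45), Ccn4 (5.52), Thbs1 (4.52), Thbs2 (3.11) and Sparc (3.001) followed. All 6 were at least 2-fold higher in both pools, for Tnc with 7.25 and 7.94 and for Sparc with 2.24 and 3.45. Spp1 had the opposite sign (-0.73) within 2-fold, with -0.53 in pool 1 and -1.37 in pool 2. Its mean of 3182 CPM in Acta2-high cells came mostly from 7 C1qb-high cells among the 64 (mean 25113 CPM), and the other 57 had a mean of 488 CPM.

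The 64 Acta2-high CPCC cells were not alike: 32 were also Col1a2-high, 25 were high in Acta2 alone and 7 were C1qb-high. In the 32, Ccn4 was found in all cells with a median of 374 CPM, Thbs1 in all with 1343 CPM, Tnc in 93.8% with 346 CPM and Sparc in all with 3681 CPM. In the 25, the medians of Ccn4 and Tnc were 0 CPM, that of Thbs1 was 108 CPM and that of Sparc 1863 CPM. These double-high cells (high in both Col1a2 and Acta2) were 18.4% of CPCC cells and held 81.8% of the Ccn4, 84.0% of the Postn, 68.8% of the Tnc and 65.8% of the Thbs1 counts. Sparc was less concentrated, with 46.5% there, 33.7% in the cells high in Acta2 alone and 18.3% in cells low in all 3.

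**Figure D2:**
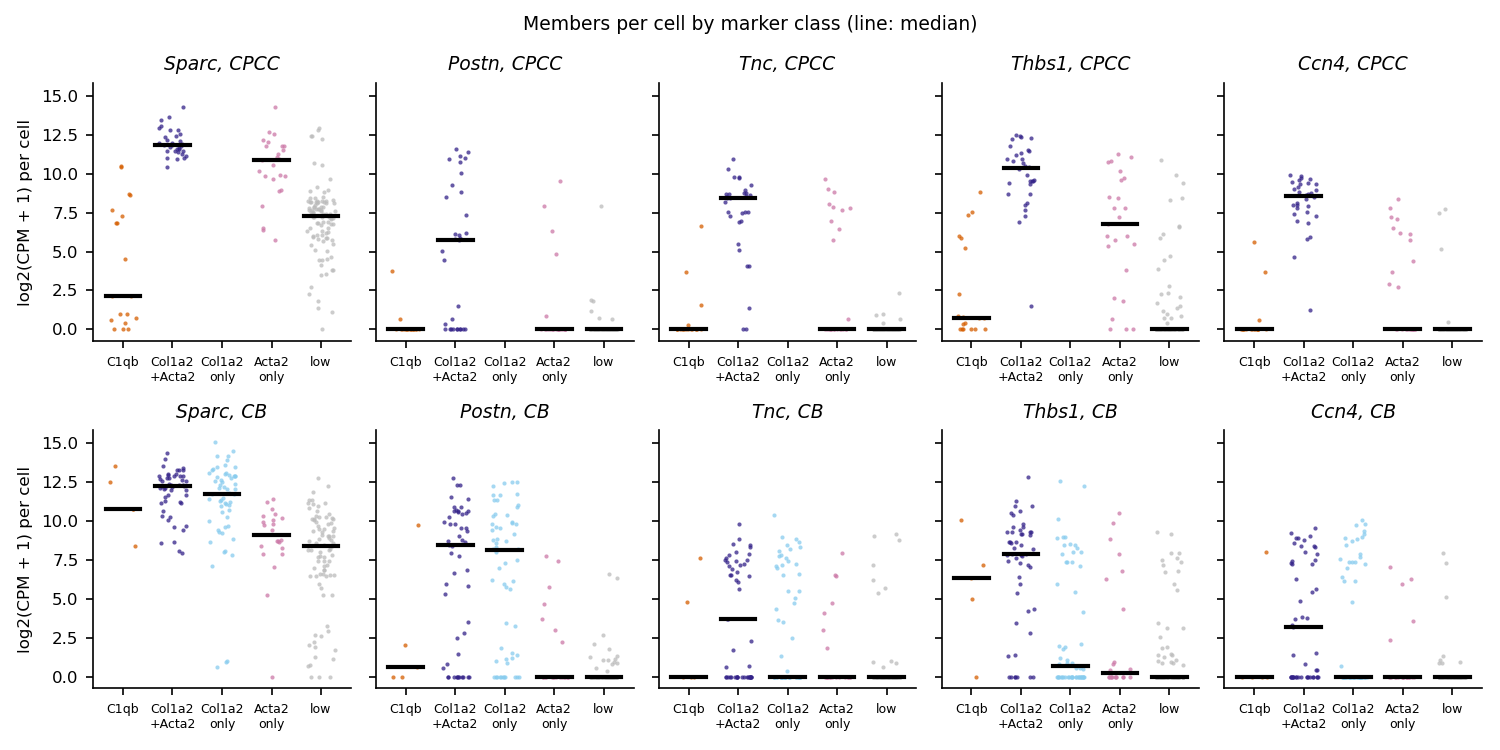
Per-cell log2(CPM + 1) of 5 members by marker class in CPCC (top) and CB (bottom); each dot is a cell and lines are medians. Sparc is present in every class shown, the Tnc median in CPCC is 346 CPM in cells high in both Col1a2 and Acta2 and 0 CPM in the other classes, and no CPCC cell is high in Col1a2 alone.

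In CB most counts of Postn, Thbs2, Ccn4, Sparc, Thbs1 and Tnc lay in Col1a2-high cells with or without Acta2. Cells high in both and cells high in Col1a2 alone were 22.9% and 26.0% of the cells. They held 45.0% and 54.3% of the Postn counts, 46.8% and 49.3% of Thbs2, 39.7% and 54.95% of Ccn4, and 37.6% and 48.4% of Sparc. Tnc had 45.9% and 34.2% there, and 13.0% in cells low in all 3. Thbs1 leaned to the Acta2 side, with 59.7% and 28.8%, and so did its median, at 234 and 0.605 CPM. Ccn5 had 77.7% in the double-high cells, although both classes had few cells with it (13.7% and 13.8%). Thbs4 had 50.0% there and 41.0% in cells high in Acta2 alone, where 2 cells carried it.

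Sparc and Sparcl1 were also held by CB cells with endothelial markers, of which 17 of 20 were low in all 3 class genes and 1 was Col1a2-high. Sparc was found in all 20 cells with endothelial markers, at a median of 1227 CPM, and Sparcl1 in 14 of them, at a median of 96.7 CPM. These cells held 17.7% of the Sparcl1, 4.16% of the Sparc and 4.11% of the Tnc counts, the last in 4 cells. No count of Thbs1, Thbs2, Thbs4, Ccn4 or Ccn5 was found in them, and all 20 were in pool 2. In the 68 CB cells with epithelial markers, of which 46 were low in all 3 class genes and 12 were Col1a2-high, Sparc was found in all, at a median of 530 CPM and with 7.05% of its counts. Sparcl1 was found in 16 of the 68, with 3.48% of its counts. Of other members, these cells held 11.9% of the Tnc (14 cells), 10.96% of the Thbs1 (37 cells) and 10.8% of the Spp1 counts (16 cells). In the 8 cells with cardiomyocyte markers, of which 1 was Col1a2-high, Sparc was found in all 8 (median 659 CPM), and the medians of Postn, Tnc, Spp1 and Ccn4 were 0 CPM.

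**Figure D3:**
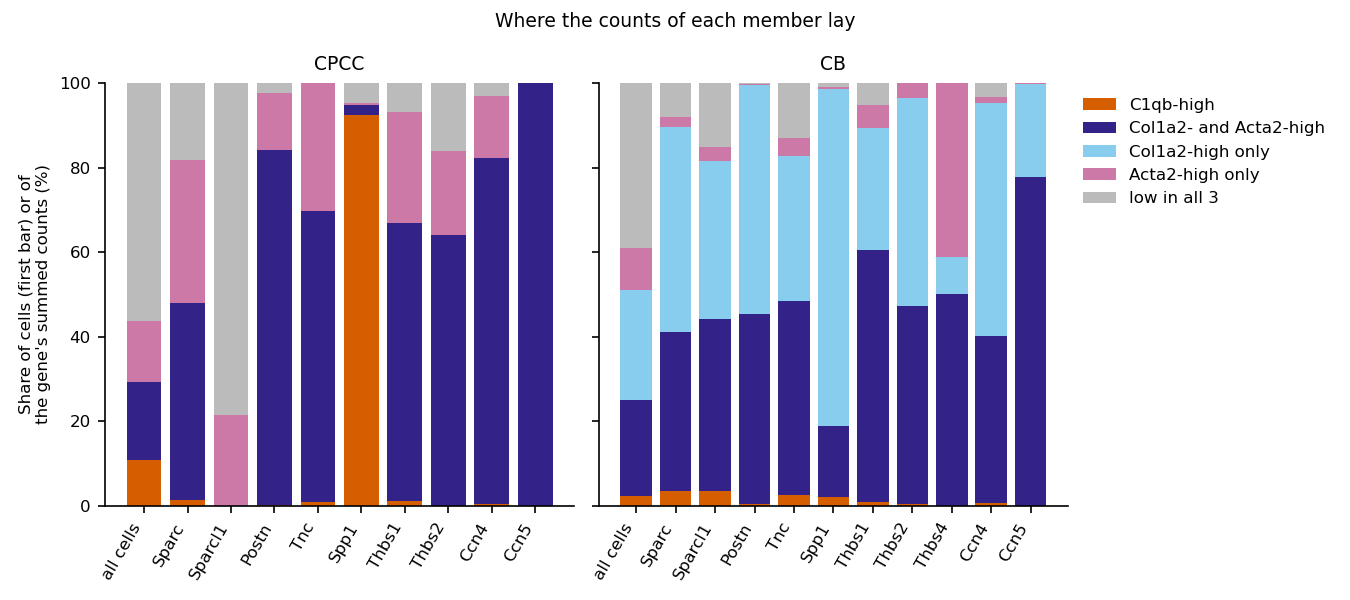
Share of cells in each marker class (first bar) and share of each member's summed counts that lay in that class (other bars), in percent, for CPCC and CB. In CPCC 92.4% of the Spp1 counts lay in the C1qb-high class, which was 10.9% of the cells.

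Spp1 in CPCC had its own cells. The 19 C1qb-high cells were 10.9% of the culture and held 92.4% of its Spp1 counts. Their Spp1 level ran from 81.3 to 98007 CPM with a median of 29250 CPM, and 18 of the 19 were above 100 CPM. Against the other 155 cells the mean was 36889 to 543 CPM (log2 ratio 6.08). Spp1 was the 1 member of 7 with an at least 2-fold higher mean in these cells, and 6 had a lower one, where 14.7% of 16010 genes were higher and 38.9% lower. Postn (-6.14), Ccn4 (-4.53), Tnc (-3.83), Thbs1 (-3.27) and Sparc (-2.99) were lower. Thbs2 had no count in the 19 cells, which allows a share of up to 15.8% of cells, and 14.2% of the other 155 held it, so that a lower share was not detectable with this number of cells. Its log2 ratio of -3.35 became -0.94 with a pseudocount of 10 CPM. The median over the members was -3.35, or -3.27 with Thbs2 at a floor of 3 counts over the class, beside -0.65 over all genes.

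C1qb was found in none of 79 cells of CPCC pool 1, which allows up to 3.797% of cells, and in 54.2% of pool 2, where 33 of the cells with a count were not C1qb-high. The C1qb-high cells had 9.20 Spp1 counts per C1qb count. The other pool 2 cells had 42.1 (Acta2-high only), 407 (double-high) and 92.0 (low in all 3), over only 86, 89 and 66 C1qb counts. The double-high value includes a cell with 10102 CPM of Spp1, beside a median of 49.7 CPM in the double-high cells of pool 2. Among the 19 C1qb-high cells themselves, Spp1 per C1qb ran from 0.0195 to 59.9 with a median of 9.75. The part of RNA from C1qb-high cells in these low counts was not tested.

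**Figure D4:**
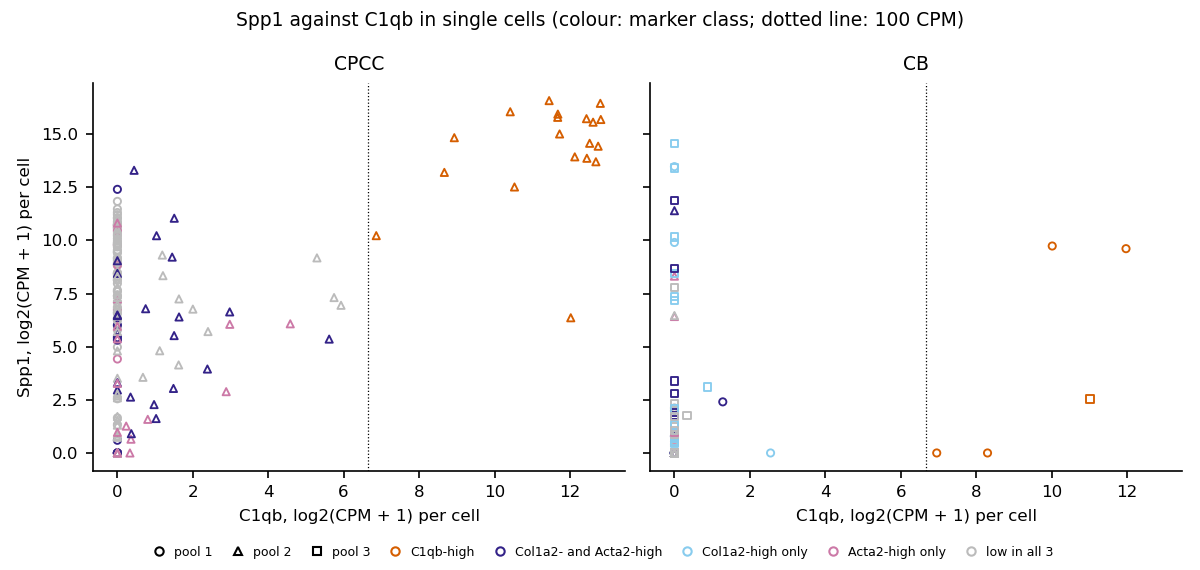
Spp1 against C1qb in single cells, both as log2(CPM + 1), for CPCC and CB; symbols are pools, colours are marker classes and the dotted line is 100 CPM of C1qb. In CPCC the C1qb-high cells of pool 2 lie at the top right (median 29250 CPM of Spp1), and in CB the highest Spp1 cells have no C1qb.

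A second group of CPCC cells had Spp1 near the level of the stem cells. In the 39 CPCC cells whose pluripotency markers summed to 1000 CPM or more, Spp1 was found in all 39 with a median of 917 CPM, and 37 of these cells were low in all 3 class genes. Across the 98 cells low in all 3, the Spp1 median was 264 CPM, with 538 CPM in pool 1 and 51.4 CPM in pool 2. The mESC pools had medians of 1055, 1331 and 1213 CPM. Sparc took another course in the same CPCC cells. Its median was 182 CPM in the 39 cells, below the medians of 686, 593 and 533 CPM of the mESC pools. Across all 98 cells low in all 3, of which 26 had epithelial markers, it was 158 CPM (171 and 153 in the pools).

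Cells often carried several members. In CPCC 31 of the 32 double-high cells had at least 3 members at 100 CPM or more, against 3 of 98 cells low in all 3. In CB this was seen in 45 of 51 double-high cells, 39 of 58 cells high in Col1a2 alone and 1 of 87 cells low in all 3. In mESC, where 3 members were listed, no cell had all 3 at that level, since the highest Sparcl1 value was 30.8 CPM, and 7 of 207 had neither Sparc nor Spp1 at that level.

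Rank correlations over cells with at least 430000 counts are given as a description, since the cells share culture, pool and preparation. In CPCC (157 cells) the closest pair of members was Tnc and Ccn4, with a Spearman rho of 0.83 (0.80 and 0.81 within pools). Ccn4 followed Col1a2 at 0.88, Tnc at 0.79 and Thbs1 at 0.73. Spp1 ran against Sparc, at -0.48 (-0.43 and -0.42 within pools). In CB (210 cells) the closest pair was Sparc and Thbs2, at 0.64 (0.56 and 0.60 in the 2 pools with Thbs2). Sparc followed Col1a2 at 0.70 overall but between -0.20 and 0.86 within pools. Of 84 pairs of members, counted over all cultures together, 12 in CPCC and 2 in CB reached a rho of 0.5. The pairs came from 9 listed members in CPCC and 10 in CB, and from fewer in mESC. No share was taken over pairs of all genes, so these counts have no background. Whether members reached this rho more often than other genes was not tested. In mESC the rho of Sparc and Spp1 was 0.11.

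**Figure D5:**
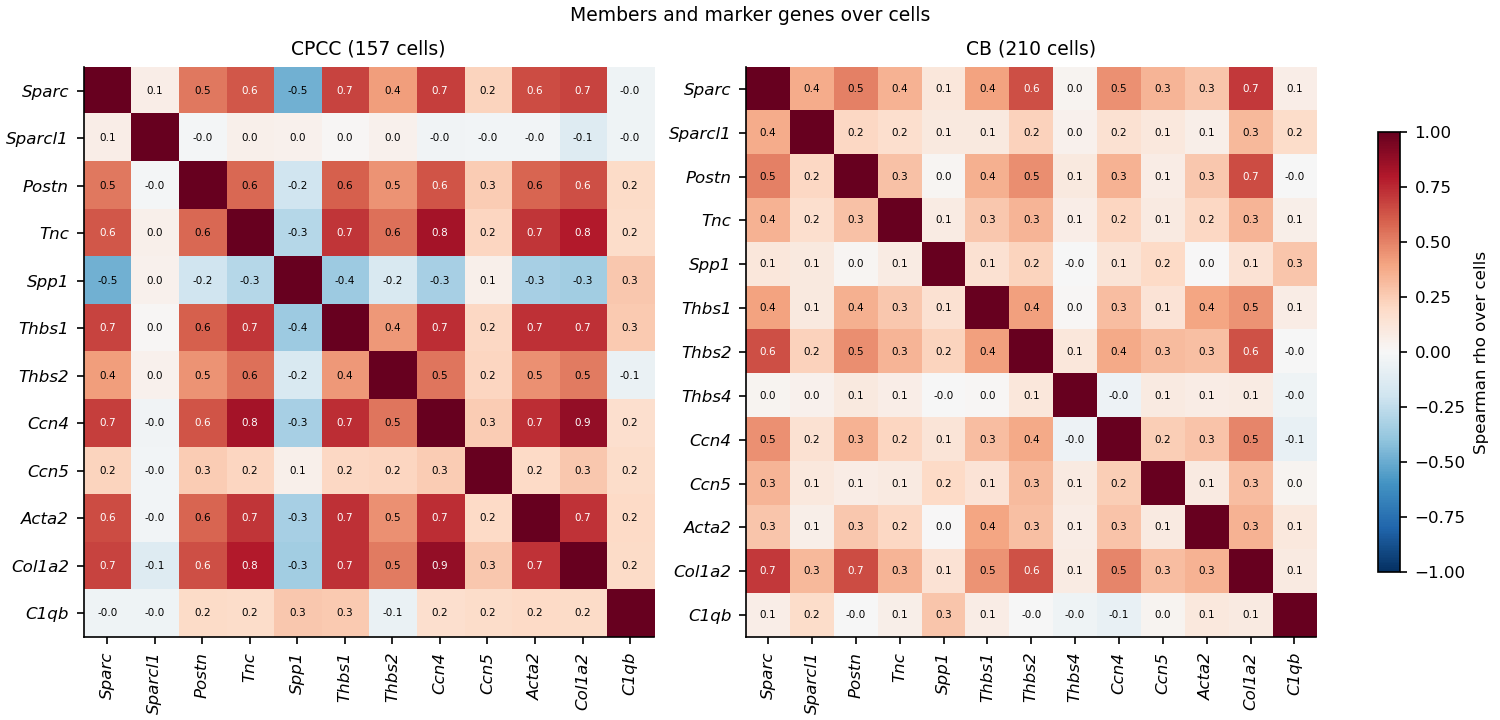
Spearman rho over cells between members and the 3 class genes in CPCC (157 cells) and CB (210 cells). Sparc, Postn, Tnc, Thbs1, Thbs2 and Ccn4 form a positive block with Acta2 and Col1a2 in CPCC, and Spp1 is negative with Sparc (-0.48).

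The genes most like each member over cells were sought among genes held by at least 25% of cells. In CB Col1a1 was nearest to Sparc (rho 0.76), Postn (0.68) and Ccn4 (0.52), Mgp (0.66) to Thbs2, Col12a1 (0.56) to Thbs1, Mmp2 (0.44) to Sparcl1 and Col6a2 (0.42) to Tnc. In CPCC the nearest were Col1a2 (0.88) for Ccn4, Wnt5a (0.86) for Tnc, Prss23 (0.80) for Thbs1 and Parva (0.78) for Sparc. For Spp1 in CPCC they were Myo1f (0.59), Inpp5d (0.56) and Fermt3 (0.55).

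Receptors and binding partners of these proteins were described from a list of 18 genes. Against mESC, 15 of 17 were at least 2-fold higher in CPCC and none lower (median log2 ratio 2.37), where 17.5% of all genes were higher and 8.36% lower. In CB 16 of 17 were higher and none lower (2.35), where 30.8% of all genes were higher and 14% lower. Without CPCC pool 2 the count in CPCC was 6 of 14, and without the C1qb-high cells it was 13 of 16. Those within 2-fold were the syndecans Sdc4 (0.51) and Sdc1 (0.88) in CPCC and the integrin chain Itgav (0.84) in CB. The osteopontin receptor Cd44 had the highest ratio of the list in both, at 0.0683 CPM in mESC against 68.2 (CPCC) and 53.2 CPM (CB). Cd36, which binds thrombospondins, was at 0.495, 33.5 and 9.95 CPM in mESC, CPCC and CB, and the SPARC scavenger Stab1 was at 0.114, 20.8 and 4.53 CPM. Without the C1qb-high cells the CPCC level was 0.444 CPM for Cd36 and 1.56 CPM for Stab1. Their CPCC pools lay at 0.420 and 64.5 CPM for Cd36 and at 0.0225 and 40.2 CPM for Stab1. The collagen receptor Ddr2 was at 0.945, 24.5 and 76.8 CPM and the integrin chain Itga8 at 0.216, 1.89 and 35.4 CPM. Between CB and CPCC 6 of 18 were higher and 2 lower, against 21.3% and 9.44% of all genes, with a median of 0.23 beside 0.22 over all genes. The highest ratios were those of Itga8 (3.65), Itga9 (2.07) and Ddr2 (1.61), and the lower genes were Stab1 (-1.98) and Cd36 (-1.66). These counts turned on the pools, with 3 higher and 4 lower without CPCC pool 1, 13 and 0 without CPCC pool 2, 9 and 3 without CB pool 2, and 3 and 1 without CB pool 3. Without the C1qb-high cells 9 were higher and 0 lower. Within cultures, 6 of 18 were higher and 1 lower in Col1a2-high CB cells (14.8% and 16.6% of all genes). In Acta2-high CPCC cells 14 were higher and 2 lower (18% and 15.8%), and in C1qb-high CPCC cells 7 were higher and 6 lower (14.7% and 38.9%).

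Of 19 related matricellular genes, 5 of 7 compared were higher in CPCC than in mESC and 1 was lower (17.5% and 8.36% of all genes), and 6 of 8 were higher in CB and none lower (30.8% and 14% of all genes). The lower gene was Smoc1, a relative of Sparc, at 11.5 (mESC), 2.54 (CPCC) and 9.10 CPM (CB). The growth factor binding genes Ccn1 (17.6, 390 and 566 CPM in mESC, CPCC and CB) and Fstl1 (25.4, 498 and 788 CPM) had the highest log2 ratios of (CPM + 1) over mESC, at 4.39 and 4.24 in CPCC and 4.93 and 4.90 in CB. By the plain ratio Tgfbi, an integrin-binding matrix gene, was highest, at 24.8-fold and 32.7-fold. Its CPCC level of 51.7 CPM was 30.4 CPM without the C1qb-high cells, where Ccn1 had 440 CPM. The CPCC pools of Tgfbi lay at 5.34 and 95.2 CPM, so its first place in CPCC rests on pool 2. Ccn2 was at 59.8, 447 and 186 CPM, and was the 1 gene of 11 that was at least 2-fold lower in CB than in CPCC, where 4 were higher (9.44% and 21.3% of all genes). These were Smoc2 (log2 ratio 2.48), Ccn3 (2.09), Spock1 (2.03) and Smoc1 (1.51). The Ccn2 pools overlapped between the cultures, at 232 and 648 CPM (CPCC) and 219, 29.0 and 315 CPM (CB). Without CPCC pool 2 the counts were 7 higher and 0 lower, and without CB pool 2 they were 6 and 0 of 12. Within cultures, 8 of 13 were higher and 1 lower in Col1a2-high CB cells (14.8% and 16.6% of all genes), and 7 of 9 higher and 1 lower in Acta2-high CPCC cells (18% and 15.8%). In C1qb-high CPCC cells 1 of 9 was higher and 8 were lower, where 14.7% of all genes were higher and 38.9% lower.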

How the data were processed

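Single cells were captured on Fluidigm C1 chips, and full-length cDNA of polyadenylated RNA was made with SMART-Seq v4 and Nextera XT for paired-end sequencing. Alignment by the authors used STAR 2.7 (version from the submitters' processing notes) in Partek Flow to GRCm38 with an Ensembl annotation. The authors deposited 1 table per culture: estimated counts (expected counts, 32.0% and 34.6% of the values above 0 in mESC and CB were not exactly whole) and, for CPCC, whole-number counts. How reads were assigned to genes, and whether strand was used, is not given in the sources used here. The CPCC table had 208 rows without a gene and 23 symbols turned into dates (0.139% of counts together), which were left out, and 2 columns that match no sample and were not used.

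The 10 members, the marker genes and the 2 gene lists were chosen with earlier results of these data known. Summed counts of all cells of a culture were scaled to a total of 1000000 (CPM). Ratios are log2 ratios of (CPM + 1), which understate changes of low genes, for genes listed in both tables with at least 1 CPM in the higher sample, and a difference was counted from 2-fold on. All genes entered the totals and the shares given as background. Classes of cells used cells with at least 10000 counts and mean CPM per cell. With 1 sample per group no test was run. A gene was detected at 1 count. Shares of cells carry exact Clopper-Pearson and summed counts exact Poisson intervals at 95%. The libraries carried no molecular identifiers and reads are not separate molecules, so the intervals and the floor of 3 counts cover counting error only. Rounded counts were thinned without replacement for shares at 430000 counts. Doublets were not called, since the chambers were inspected under a microscope in the study and the tables do not mark them. Gene positions, exon overlaps and transcript lengths are from GENCODE M21 (GRCm38), promoters from RefSeq (GRCm38.p6). A fixed rule set which genes could be named: all members, the 3 highest and 3 lowest genes of each list per pair of cultures, of which the text names some, and the 3 genes with the highest Spearman rho to a member held by at least 25% of cells, among genes held by at least 25%. Alternatives covered TMM factors (edgeR 4.0.16), DESeq2 1.42.0 size factors, equal weight per cell, pseudocounts, filters on genes and cells, class limits, single cells and pools left out. The steps were tested on simulated data (Python 3.11.15, numpy 2.4.6, scipy 1.17.1).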

Additional observations from a re-analysis of the deposited data

Results flagged for a closer look

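The contrast of Spp1 between Col1a2-high and other cells had opposite directions in the 2 cultures. The log2 ratio of (mean CPM + 1) was -3.03 in CPCC (659 CPM in 32 cells, 5380 CPM in 142 others) and 6.07 in CB (514 CPM in 113 cells, 6.68 CPM in 110 others). It was negative in both CPCC pools (-0.32 and -3.87) and positive in all 3 CB pools (7.80, 4.57 and 6.44). Without the 19 C1qb-high cells, an alternative chosen after seeing the data, the CPCC ratio turned to 0.36 (659 CPM against 513 CPM in 123 others), and in pool 2 alone to 1.98 (675 against 171 CPM). The sign over both pools rests on 1 Col1a2-high cell of pool 2 with 10102 CPM of Spp1, beside a class median of 41.0 CPM. Without this cell as well the ratio was -0.53 (355 against 513 CPM), and 0.53 in pool 2 (247 against 171 CPM). The difference was not tested, since each culture is 1 sample. In CB a single cell held 46.7% of the Spp1 counts.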

How the results depend on the processing

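The 6 counts of members past 2-fold, the 14 listings held by at least 25% of cells and the 14 pairs with a rho of 0.5 stayed within 1.5 times under 76 of 78 alternatives. The exceptions concern CPCC over mESC. Single values (ratios, shares, levels and rho) were less stable by their own limits, such as the counting interval. Of these, 453 stayed within the limit, 229 moved past it and 5 ratios past 2-fold changed sign. The count of 2 was 1 without the C1qb-high cells (added after seeing the data), and from 0 to 2 with a pool left out, the 0 without CPCC pool 2. Spp1 turned from a log2 ratio of 2.204 to -1.28 and -1.08 (range with a pool left out -1.08 to 3.08), and Sparc went from 1.60 to 0.86 without CPCC pool 2. With a pool left out, the other counts ran from 2 to 2 (CB over mESC), 3 to 6 (CB over CPCC), 8 to 9 (Col1a2-high CB cells), 6 to 7 (Acta2-high CPCC cells) and 1 to 1 (C1qb-high CPCC cells, where pool 1 alone has no such cell). For Spp1 in Col1a2-high CPCC cells (-3.03), the ratio turned to 0.36 without the C1qb-high cells and to 1.98 in pool 2 alone without them, but to -0.53 and 0.53 when the Col1a2-high cell highest in Spp1 was left out as well, and ran from -3.87 to -0.32 with a pool left out (all added after seeing the data). Of 346 ratios of the 33 member contrasts past 2-fold, 341 kept their sign and 335 stayed past 2-fold. The others are those named above, Spp1 in CB over CPCC without C1qb-high cells (-0.99), Ccn5 in Col1a2-high CB cells without pool 3 (0.69) and Thbs2 in C1qb-high CPCC cells with a pseudocount of 10 CPM (-0.94), whose cause was not tested. Contrasts that fell under the filter of 1 CPM are not in this tally. Ccn5 in CB over CPCC without CB pool 3 is such a lost contrast. Relative to library totals, TMM factors moved the median of all genes from 0.29 to 0.10 in CB over mESC. No paired analysis was possible because no replicate number is in the column names and no result comes from a test. With 1 sample per culture, the spread between cultures of a kind is unknown, and pools that differ in cell classes and cultures cannot be told apart.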
